A study of Mus musculus with 6 samples.

Results

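Gpr183, a receptor for oxidised cholesterol, was examined in microglia together with the enzymes that make and remove its ligand and with the liver X receptors (LXRs) and their classical targets. These are 9 genes of the 55335 in the deposited table, namely Gpr183, Ch25h, Cyp7b1, Hsd3b7, Nr1h2, Nr1h3, Abca1, Abcg1 and Mylip. They were taken by name. Gpr183 was chosen by its measured FPKM difference between the 2 arms compared here, and the other 8 genes as parts of the same sterol pathway, with results of this contrast already in view. Their differences between the arms are therefore given as a description, with no p, and the number of members past the threshold of the fit over all genes is given once, beside the share of all genes.

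The cells were primary microglia from the brains of neonatal C57BL/6 mice of WT genotype. They were co-cultured for 24 h with neutrophils that had been sorted magnetically from the injured spinal cord at 3 dpi (days post-injury) and that came either from Cd177 WT or from Cd177 KO mice. The knockout was thus in the neutrophils alone, and the microglia of both arms were WT. Microglia were then collected by FACS as Ly6G- cells, and RNA-seq was done on 3 libraries with WT neutrophils and 3 with KO neutrophils. Whether replicates stand for separate cultures or mice is not said in the labels, so p-values measure only the spread between these libraries, which may be technical. Microglia without neutrophils were not analysed here.

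Oxysterols are oxidised forms of cholesterol. Ch25h and then Cyp7b1 add hydroxyl groups to make the ligand that attracts Gpr183-bearing immune cells, and Hsd3b7 breaks this ligand down. Oxysterols also bind the nuclear receptors LXRα (Nr1h3) and LXRβ (Nr1h2), which pair with a retinoid X receptor and switch on genes for cholesterol export (Abca1, Abcg1) and for the control of lipoprotein uptake (Mylip, also called IDOL). In macrophages and microglia this pathway is known for handling lipid taken up from myelin and dead cells.

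Values are FPKM, a level scaled to transcript length and library size. Levels of different genes can be set side by side only as far as these lengths are right, and the lengths used were not known. Per library, 11371 to 11406 genes had at least 1 FPKM. Cd177, the gene removed from the neutrophils, had 0.477, 0.113 and 0.151 FPKM in the WT libraries, against 0.109, 0.0217 and 0.0845 FPKM in those with KO neutrophils, which gives no firm check of the neutrophil genotype in microglial RNA. Of 15 microglia and macrophage markers 9 exceeded 1 FPKM in at least 1 library, and the summed level of the list was 793 to 831 FPKM in the WT arm and 931 to 970 FPKM in the KO arm. The markers moved in both directions. Cd68, which made up the largest share of the sum, had 372 ± 7.48 FPKM with WT neutrophils and 491 ± 12.5 FPKM with KO (SD, n = 3 each), and Tyrobp, Csf1r and Trem2 were higher too, whereas Adgre1 fell from 101 ± 2.67 to 39.3 ± 1.56 FPKM (log2 difference -1.34, limma adjusted p = 1.74e-06) and Cx3cr1 from 2.74 ± 0.296 to 1.14 ± 0.251 FPKM (log2 difference -0.81, limma adjusted p = 0.00148). However, Sall1, C1qa and Fcrls had 0 FPKM throughout and P2ry12 reached at most 0.148 FPKM, so several defining microglial markers were at or near 0. These values leave the identity of the cells as microglia in doubt, and they are called microglia here as the labels call them. All 12 neutrophil markers stayed under 1 FPKM, with sums of 1.82 to 2.02 FPKM in the WT arm and 0.769 to 1.19 FPKM in the KO arm, and Ly6g, S100a9, Mpo, Elane, Retnlg and Ltf were at 0 throughout. Markers of astrocytes, oligodendrocytes, fibroblasts and endothelium also stayed under 1 FPKM in every library. The microglial and the neutrophil sums moved with the arm, and their part in the values below was not tested. The study describes its animals as male, whereas Xist had 106 to 126 FPKM in every library and 4 Y-linked genes were listed at 0, which goes against that description.

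First, the receptor was examined. Gpr183 (ENSMUSG00000051212, chromosome 14, 121952551 to 121965195, minus strand, GRCm38, GENCODE M21) had 1.17, 1.58 and 1.20 FPKM in the WT libraries, against 7.12, 5.94 and 6.51 FPKM in those with KO neutrophils. Every KO library lay above every WT library. The means were 1.31 ± 0.230 and 6.52 ± 0.590 FPKM (SD, n = 3 each), which is 4.96 times as much with KO neutrophils, or 1.70 (SE 0.094) on the log2(FPKM + 1) scale. In the order of all 11395 genes tested by their mean level, Gpr183 moved from the 4.9th percentile in the WT arm to the 43.9th in the KO arm. Its difference was the 8th largest rise of those genes, which is the value for which it was chosen. With a pseudocount of 0.1 in place of 1 the difference was 2.24.

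Gpr183 lies within the gene Ubac2 on the opposite strand, and in the annotation no exonic base of either gene is shared with the other. Ubac2 had 12.4, 12.0 and 11.2 FPKM in the WT libraries, against 9.87, 9.39 and 10.5 FPKM in those with KO neutrophils, so the host gene was lower where Gpr183 was higher. Gpr183 is also expressed by B cells and dendritic cells, and markers of these cells were near 0. The 5 B cell markers summed to at most 0.0876 FPKM in a WT and 0.109 FPKM in a KO library, with Ms4a1 and Pax5 at 0, and the 7 dendritic cell markers to 0.569 to 0.733 and 0.557 to 0.767 FPKM, with Cd209a and Ccr7 at 0. Of 6 T cell markers Cd3d, Cd3e, Cd3g and Cd8a were at 0 and only Cd5 exceeded 1 FPKM, with sums of 3.31 to 4.17 FPKM with WT neutrophils, above the 0.844 to 1.00 FPKM with KO. The part of these marker levels in the difference of Gpr183 was not tested.

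Next, the enzymes of the ligand were examined. Ch25h (ENSMUSG00000050370, chromosome 19, 34473778 to 34475164), which starts ligand synthesis, was listed at 0 in all 6 libraries. Cyp7b1 (ENSMUSG00000039519, chromosome 3, 18071950 to 18243338), which completes it, was likewise listed at 0 in all 6. No comparison between the arms is possible for this pair. An exact 0 can be a failed estimate in a table without counts, and this was not tested for Ch25h or Cyp7b1. Of 30 genes that every cell uses 0 were listed at 0, but these genes had at least 23.2 FPKM in every library. Ch25h has a single exon, and such genes were not missing as a class, since 178 of 1293 protein-coding genes with 1 exon had a mean of at least 1 FPKM (13.8%) and 786 were at 0 in all libraries (60.8%), against 9600 (46.6%) and 6893 (33.5%) of 20606 with more exons. A long non-coding RNA on the opposite strand, Gm26902, shares 159 of the 1387 exonic bases of Ch25h and reached at most 0.051 FPKM.

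Hsd3b7 (ENSMUSG00000042289, chromosome 7, 127800604 to 127803802), the enzyme of ligand breakdown, was expressed in both arms. It had 7.16, 7.30 and 6.82 FPKM in the WT libraries, against 8.58, 8.42 and 9.09 FPKM in those with KO neutrophils. The arms did not overlap, but the difference was small, 1.23 times or 0.26 (SE 0.046) in log2(FPKM + 1). Another annotated gene on the same strand, Gm49388, shares 1717 of its 2769 exonic bases and was listed at 0 in all libraries, so the value of Hsd3b7 is uncertain where reads could be split. A transcript on the opposite strand, 9430064I24Rik, shares 1729 bases and had 0.026 to 0.563 FPKM. Thus, the degrading enzyme had values above 0 while both synthesising enzymes were listed at 0. The ratio of Gpr183 to Hsd3b7 within a library was 0.185 ± 0.0278 with WT and 0.751 ± 0.0685 with KO neutrophils (SD, n = 3 each).

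The LXRs themselves were expressed at similar levels in both arms. Nr1h2 (LXRβ, ENSMUSG00000060601, chromosome 7, 44549616 to 44553951) had 6.01, 5.63 and 5.79 FPKM in the WT libraries, against 5.72, 6.04 and 5.18 FPKM in those with KO neutrophils. Nr1h3 (LXRα, ENSMUSG00000002108, chromosome 2, 91184061 to 91202834) had 2.34, 2.23 and 1.62 FPKM in the WT libraries, against 2.06, 1.84 and 1.61 FPKM in those with KO neutrophils. For both genes the arms overlapped. The difference in log2(FPKM + 1) was -0.04 for Nr1h2 (95% interval -0.18 to 0.11) and -0.11 for Nr1h3 (95% interval -0.38 to 0.17), so changes within these intervals could not be told from none. LXRβ had the higher FPKM in every library, 2.89 ± 0.587 times that of LXRα in the WT and 3.10 ± 0.276 times in the KO arm (SD, n = 3 each). Nr1h3 shares 34 of 2515 exonic bases with Gm13783 on the same strand, a transcript of at most 0.554 FPKM.

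The targets of LXR did not move together. Abca1 (ENSMUSG00000015243, chromosome 4, 53030787 to 53159895), which loads cholesterol onto lipid-poor apolipoproteins, had 12.8, 12.9 and 12.9 FPKM in the WT libraries, against 6.24, 6.16 and 6.26 FPKM in those with KO neutrophils. It was the lower of the targets with KO neutrophils, at 0.484 of the WT level (log2 difference -0.94, SE 0.033). Abcg1 (ENSMUSG00000024030, chromosome 17, 31057675 to 31117988), which passes cholesterol to mature lipoprotein particles, had 6.76, 7.39 and 6.13 FPKM in the WT libraries, against 9.14, 9.19 and 8.84 FPKM in those with KO neutrophils. Here the KO arm was the higher, 1.34 times the WT level (log2 difference 0.38, SE 0.065). Mylip (ENSMUSG00000038175, chromosome 13, 45389742 to 45412022), a ubiquitin ligase that limits the uptake of lipoproteins, had 3.83, 3.89 and 3.63 FPKM in the WT libraries, against 5.99, 6.33 and 5.95 FPKM in those with KO neutrophils, or 1.61 times as much (log2 difference 0.57, SE 0.048). For each of the 3 targets the arms did not overlap.

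The opposite course of both exporters was seen most plainly as a ratio within each library, which does not depend on library scaling. Abca1 divided by Abcg1 gave 1.89, 1.74 and 2.10 in the WT libraries, against 0.682, 0.670 and 0.708 in those with KO neutrophils. Thus Abca1 had the higher FPKM in each WT library and Abcg1 in each KO library. Which transcript was the more abundant also depends on the length used for each gene, which was not known. Replicates of Abca1 were close, with a coefficient of variation of 0.607% in the WT and 0.870% in the KO arm, whereas it was 9.27% and 2.11% for Abcg1.

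**Figure D1:**
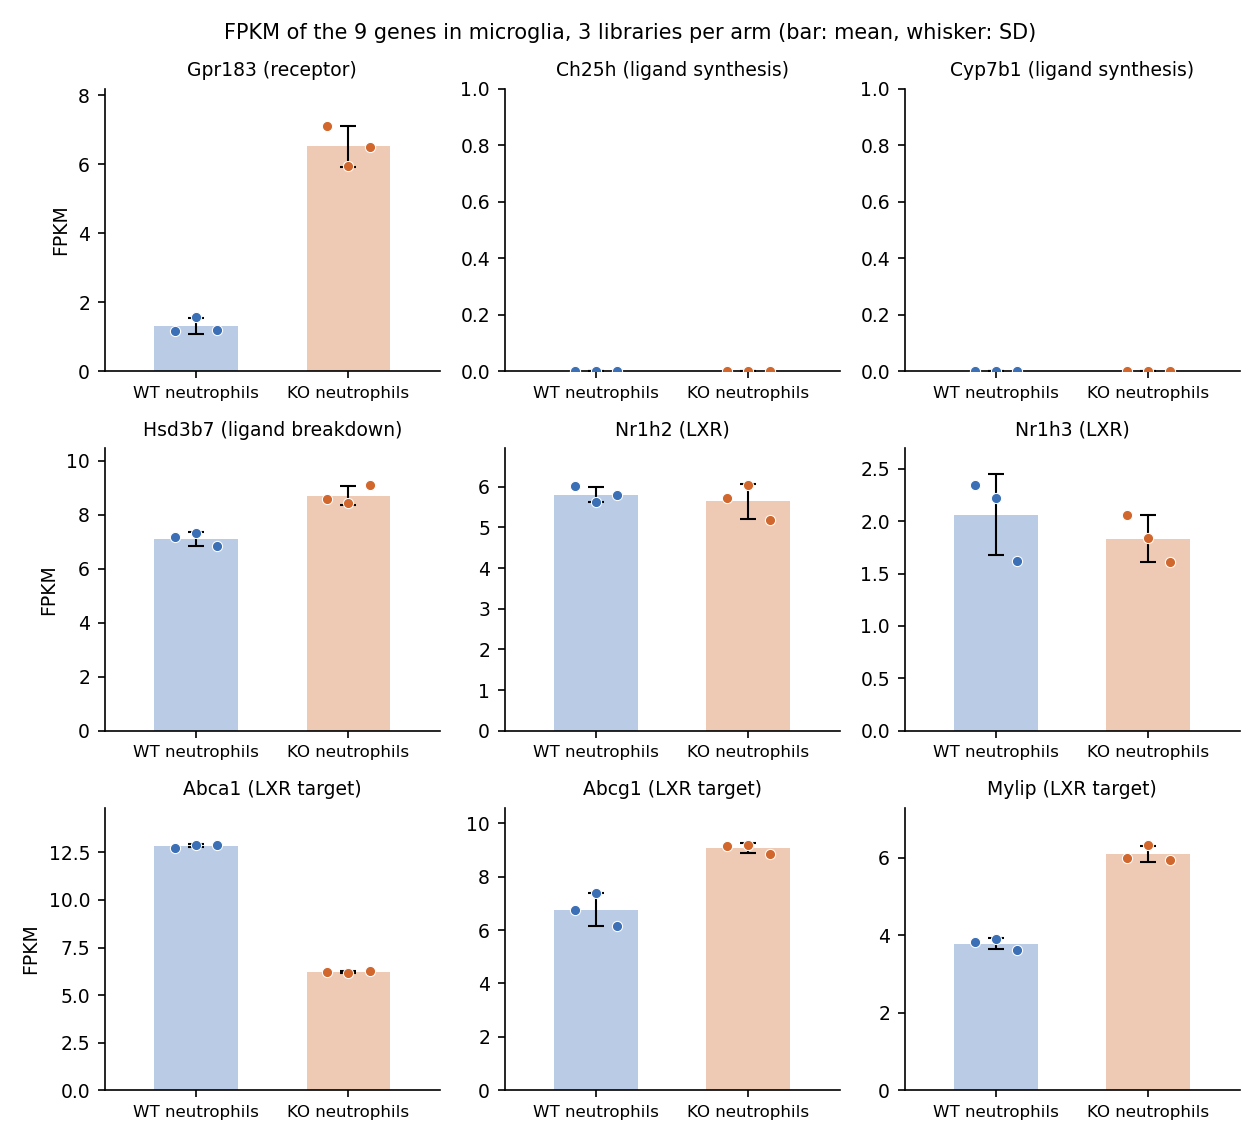
FPKM of each of the 9 genes by neutrophil genotype, with 1 panel per gene and its own axis from 0. Points are the 3 libraries of an arm, bars the mean and whiskers the SD. Gpr183 stands at 1.17 to 1.58 FPKM with WT and 5.94 to 7.12 FPKM with KO neutrophils, Abca1 takes the opposite course, and Ch25h and Cyp7b1 are at 0 in every library.

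Since Gpr183 and Abca1 moved furthest and in opposite directions, the 250 bases before their RefSeq start sites (GRCm38.p6) are shown, as the stretch in which a response element next to the start would lie. They are written 5′ to 3′ on the strand of the gene. LXR with its partner binds direct repeats of AGGTCA spaced by 4 bases, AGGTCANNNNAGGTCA, and capitals mark the stretch closest to this motif on either strand. The Abca1 stretch covers chr4:53159896-53160145 (minus strand) and that of Gpr183 covers chr14:121965194-121965443 (minus strand).
Abca1: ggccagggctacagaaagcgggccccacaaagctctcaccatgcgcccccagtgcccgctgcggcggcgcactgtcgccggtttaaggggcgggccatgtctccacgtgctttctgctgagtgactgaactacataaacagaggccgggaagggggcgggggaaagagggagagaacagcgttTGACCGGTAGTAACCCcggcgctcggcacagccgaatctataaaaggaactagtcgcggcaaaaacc
Gpr183: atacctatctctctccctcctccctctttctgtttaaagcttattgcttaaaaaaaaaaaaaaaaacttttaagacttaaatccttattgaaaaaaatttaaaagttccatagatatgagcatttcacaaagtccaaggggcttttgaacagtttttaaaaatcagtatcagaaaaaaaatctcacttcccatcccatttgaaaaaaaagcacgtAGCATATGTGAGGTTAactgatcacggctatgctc

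In Abca1 the closest stretch lay 67 to 52 bases before the start on the opposite strand, where it reads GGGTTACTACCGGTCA, with 3 mismatches to the 12 fixed letters. A match with at most 3 mismatches was held by 18.5% of the 32851 RefSeq promoters of this length. In Gpr183 the closest stretch had 4 mismatches and a second stretch was equally close, and a match with at most 4 was held by 70.6% of promoters. Among the 7 members with an entry Ch25h, Hsd3b7, Nr1h2 and Nr1h3 also had 4 mismatches at best and Mylip had 6. Abcg1 and Cyp7b1 had no entry. These are letter matches in a short window, and binding was not measured.

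The order of levels among the 7 genes above 1 FPKM differed between the arms. With WT neutrophils it was Abca1 (mean 12.8 FPKM), Hsd3b7 (7.09), Abcg1 (6.76), Nr1h2 (5.81), Mylip (3.78), Nr1h3 (2.06) and Gpr183 (1.31 FPKM), and Hsd3b7 and Abcg1 were the only neighbours whose libraries overlapped. With KO neutrophils it was Abcg1 (9.06), Hsd3b7 (8.69), Gpr183 (6.52), Abca1 (6.22), Mylip (6.09), Nr1h2 (5.64) and Nr1h3 (1.83 FPKM). Here Abcg1 overlapped with Hsd3b7, and so did Gpr183 with Abca1, Abca1 with Mylip and Mylip with Nr1h2, although Abca1 lay above Nr1h2 in every KO library. The receptor thus went from last place to a group of genes at about the same level.

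Of the 9 members 7 had a mean of at least 1 FPKM and entered the fit over all genes, in which an adjusted p under 0.05 (limma, Benjamini-Hochberg) counted as a call. That threshold was passed by 5 of the 7, Gpr183, Hsd3b7, Abcg1 and Mylip on the higher side and Abca1 on the lower side. Of all 11395 genes tested 43.3% passed it, 24.5% higher and 18.8% lower, and 55.8% had arms without overlap, as the same 5 members had. The threshold of the study was a fold above 2 with p under 0.05 before adjustment. Applied to the fitted differences, it was passed by 0.553% of genes on the higher side, with Gpr183 among them, and by 2.02% on the lower side, where Abca1 at -0.94 stayed just outside. The call of Abca1 by this threshold turned on the pseudocount, since its difference was -1.03 with 0.1 in place of 1 and the ratio of its WT to its KO mean was 2.06. The median difference was 0.26 in log2(FPKM + 1) over the 7 members and 0.02 over all genes tested. Since this contrast chose the members, nothing is read from these shares or medians. In bulk RNA, fewer cells with a transcript and less transcript per cell cannot be told apart.

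Then, 74 further genes of sterol handling, LXR function and G protein signalling were examined in 5 lists that hold none of the 9 members. Of these 53 were tested, and 31 were higher and 7 lower with KO neutrophils by limma adjusted p under 0.05 over all genes, while 15 were not called. Mertk, among the higher ones, averaged 0.490 FPKM in the WT arm, against 2.07 FPKM in the other, and so passed the filter on low values only through the arm in which it was high. Without it 30 of 52 were higher (57.7%). The called share was 71.7%, with 58.5% higher and 13.2% lower, beside the 43.3%, 24.5% and 18.8% of all genes tested. The median difference was 0.23 against 0.02 in log2(FPKM + 1). Since the lists were chosen with earlier results of these data known, nothing is read from these shares or medians. With every library brought to the same FPKM sum, which raised the lower share of all calls from 43.4% to 54.9%, 24 were higher and 7 lower. The count of lower genes fell to 4 or 5 whichever 1 library was left out.

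Among 11 other enzymes of oxysterol, bile acid and sterol metabolism 3 were tested and all 3 were higher. Cyp27a1, which makes another side-chain oxysterol that activates LXR, rose from 13.7, 13.4 and 14.8 FPKM to 18.0, 19.4 and 18.6 FPKM (log2 difference 0.39, SE 0.048, limma adjusted p = 0.00102). Cyp46a1 and Cyp11a1, which also hydroxylate the side chain, stayed under 1 FPKM in every library. Dhcr7, of the last step of cholesterol synthesis, rose from 3.29 ± 0.230 to 5.08 ± 0.263 FPKM (SD, n = 3 each; limma adjusted p = 0.00108). Ebp, a sterol isomerase of the same route, had 3.90 ± 0.169 and 5.38 ± 0.925 FPKM (limma adjusted p = 0.0354), but its call was lost without any 1 library other than KO replicate 2, at log2 differences of 0.28 to 0.39, as it was when unfiltered genes entered the fit or replicate numbers were used as a block. Cyp39a1, Cyp7a1, Cyp8b1 and Akr1d1 were listed at 0 in all 6 libraries.

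Of 14 partners and coregulators of LXR 13 were tested, with 4 higher, 1 lower and 8 not called (median 0.03). Rxra, the retinoid X receptor that pairs with LXR, rose from 16.4, 15.7 and 15.8 FPKM to 22.6, 22.4 and 22.3 FPKM (log2 difference 0.47, SE 0.030, limma adjusted p = 5.79e-05). Ncoa3, a coactivator, rose from 12.5 ± 0.592 to 16.1 ± 0.273 FPKM (limma adjusted p = 0.00101), and Gps2, a subunit of the corepressor complex, rose slightly (log2 difference 0.18, limma adjusted p = 0.0132). Rxrb, another retinoid X receptor, was the lower gene, with 21.1, 17.9 and 18.8 FPKM against 16.0, 17.2 and 16.6 FPKM (log2 difference -0.20, limma adjusted p = 0.0409). Its call was lost without any 1 library other than WT replicate 2, at differences of -0.23 to -0.14. Ncor1, a corepressor that holds LXR targets silent without ligand, had a log2 difference of 0.04 (95% interval -0.04 to 0.13) and was named after its value was seen.

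Of 19 other LXR targets 11 were tested, with 8 higher, 1 lower and 2 not called (median 0.52). Without Mertk, which passed the filter only through its KO level, 7 of 10 were higher (median 0.50). Lpl, the lipase that frees fatty acids from lipoproteins, rose from 130.1, 130.3 and 132 FPKM to 248, 247 and 246 FPKM (log2 difference 0.91, SE 0.017, limma adjusted p = 3.85e-07). Both enzymes of fatty acid synthesis named here rose too, Fasn from 14.8 ± 0.571 to 22.1 ± 0.310 FPKM (limma adjusted p = 6.76e-05) and Scd2 from 24.7 ± 0.808 to 36.0 ± 1.79 FPKM (limma adjusted p = 0.000217). The lower gene was Cd38, an enzyme that degrades NAD, which fell from 3.95 ± 0.367 to 2.74 ± 0.305 FPKM (limma adjusted p = 0.0108) and was named after its value was seen. Apoe, the main apolipoprotein of glia and likewise named later, was not called, with 131, 131 and 79.2 FPKM against 136, 142 and 193 FPKM (log2 difference 0.48, SE 0.229, limma adjusted p = 0.136), where WT replicate 3 and KO replicate 3 stood apart from the rest. The log2 difference of Apoe was 0.24 without WT replicate 3 and ran up to 0.6 when other libraries were left out. Abcg5, Abcg8 and Smpdl3a were listed at 0 in all libraries.

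Of 15 genes of sterol sensing, uptake and storage 14 were tested, with 9 higher, 3 lower and 2 not called (median 0.24). Insig1, which keeps the sterol sensor of the SREBP pathway in the endoplasmic reticulum, rose from 12.4, 12.7 and 12.6 FPKM to 26.9, 26.8 and 27.5 FPKM (log2 difference 1.05, SE 0.028, limma adjusted p = 1.66e-06). Lipa, the lysosomal lipase that frees cholesterol from its esters, rose from 19.4 ± 0.267 to 37.6 ± 0.525 FPKM (limma adjusted p = 2.06e-06). Cd36, a scavenger receptor for oxidised lipoproteins, rose from 10.6 ± 0.741 to 16.3 ± 1.36 FPKM (limma adjusted p = 0.00127). In contrast, Npc2, which carries cholesterol out of the lysosome, fell from 127 ± 1.10 to 88.0 ± 3.21 FPKM (log2 difference -0.53, limma adjusted p = 3.46e-05).

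The other lower genes of that list were Npc1 and Insig2, which were named after their values were seen. Npc1, the membrane partner of Npc2, fell by 0.38 in log2(FPKM + 1) (limma adjusted p = 0.000280). Insig2, a relative of Insig1, had a log2 difference of -0.24 (limma adjusted p = 0.0240), and its call was lost without KO replicate 2, KO replicate 3, WT replicate 2 or WT replicate 3, at differences of -0.25 to -0.20.

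Finally, of 15 genes of G protein signalling that can act after a receptor such as Gpr183, 12 were tested, with 7 higher, 2 lower and 3 not called (median 0.25). Arrb1, an arrestin that turns receptors off, rose from 1.26, 2.74 and 1.10 FPKM to 8.76, 7.47 and 9.23 FPKM (log2 difference 1.86, SE 0.223, limma adjusted p = 0.000979), with WT replicate 2 apart from the other WT libraries. The other arrestin, Arrb2, had far higher values and fell from 47.7 ± 4.64 to 36.4 ± 2.95 FPKM (limma adjusted p = 0.0117). Rgs2 rose from 15.6 ± 0.321 to 33.3 ± 0.843 FPKM (limma adjusted p = 2.81e-06) and Rgs10 from 10.6 ± 0.706 to 16.6 ± 0.190 FPKM (limma adjusted p = 0.000182). Both shorten the signal of G proteins. Grk2, a receptor kinase, was the other lower gene (log2 difference -0.11, limma adjusted p = 0.0445). It was named after its value was seen, and its call was lost without any 1 library other than WT replicate 3, at differences of -0.12 to -0.10.

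**Figure D2:**
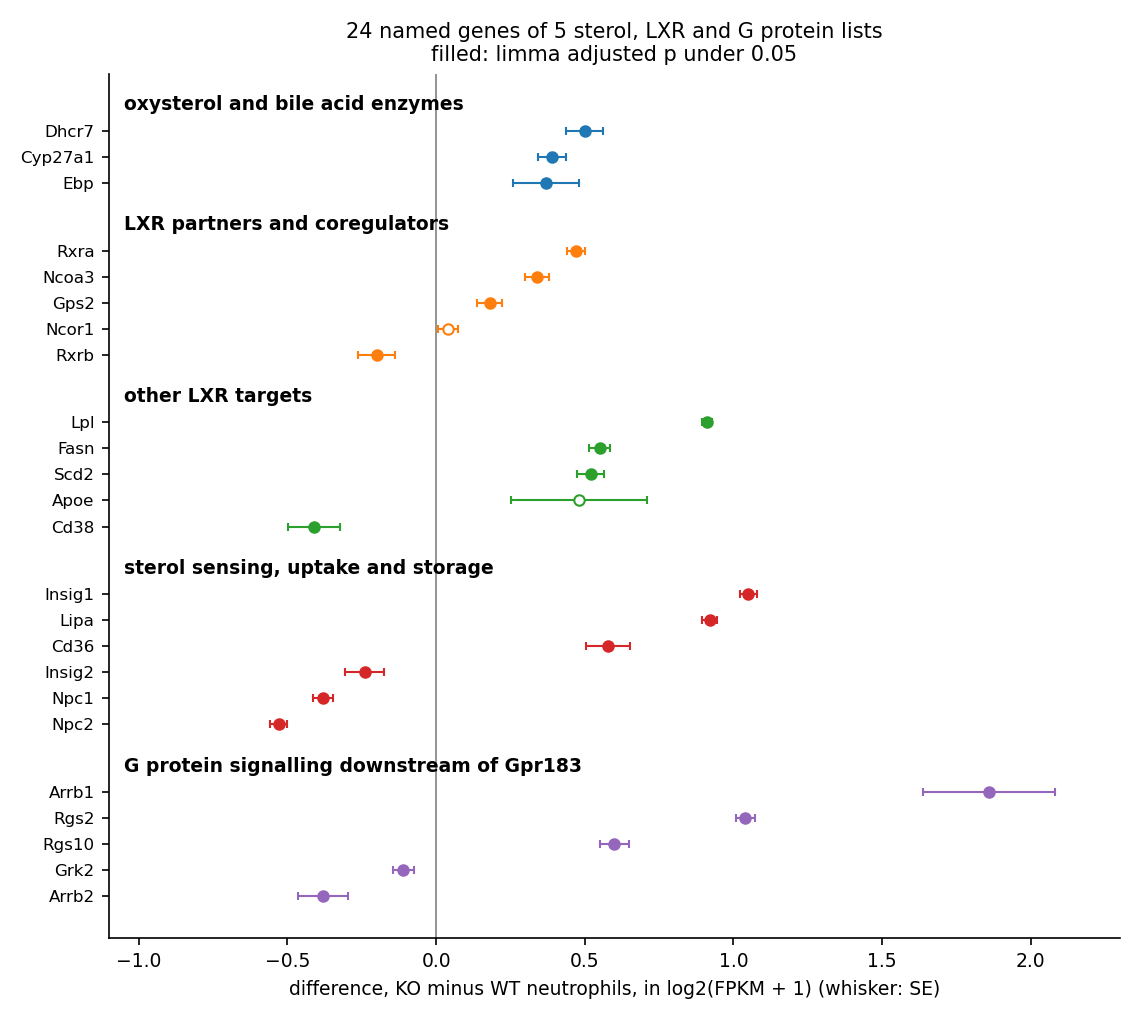
Difference in log2(FPKM + 1), KO minus WT neutrophils, of 24 fitted genes of the 5 lists that are named in the text. Mertk, which passed the filter only through its KO level, is not shown. Points are fitted differences, whiskers their SE, and filled points have a limma adjusted p under 0.05. Filled points lie on the right for 15 genes, up to Arrb1 at 1.86, and on the left for 7, down to Npc2 at -0.53.

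To describe the pattern of Gpr183 further, the genes with the closest profile were sought among those tested. Likeness was the root mean square distance between log2(FPKM + 1) profiles over the 6 libraries, each centred on its own mean. The 5 closest were Cytip at 0.141, Cmbl at 0.146, Cd300lb at 0.146, Eno3 at 0.152 and Ighm at 0.152. Cytip, which holds a regulator of integrin adhesion, had 1.21, 1.33 and 1.51 FPKM in the WT libraries, against 6.05, 5.31 and 5.65 FPKM in those with KO neutrophils. Cd300lb, an activating receptor of myeloid cells, had 5.67 ± 0.560 and 18.0 ± 0.120 FPKM (SD, n = 3 each), and Eno3, an enolase of glycolysis, had 15.9 ± 1.06 and 46.9 ± 1.67 FPKM (SD, n = 3 each). Ighm encodes the heavy chain of IgM and had 2.52, 2.42 and 2.36 FPKM against 10.8, 10.7 and 8.44 FPKM, although the markers of B cells given above were near 0. With 2 arms of 3 libraries, this distance mostly finds genes with a difference of like size, and the levels of these 5 genes ran from 1.19 FPKM for Cmbl to 15.9 FPKM for Eno3 in the WT arm.

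**Figure D3:**
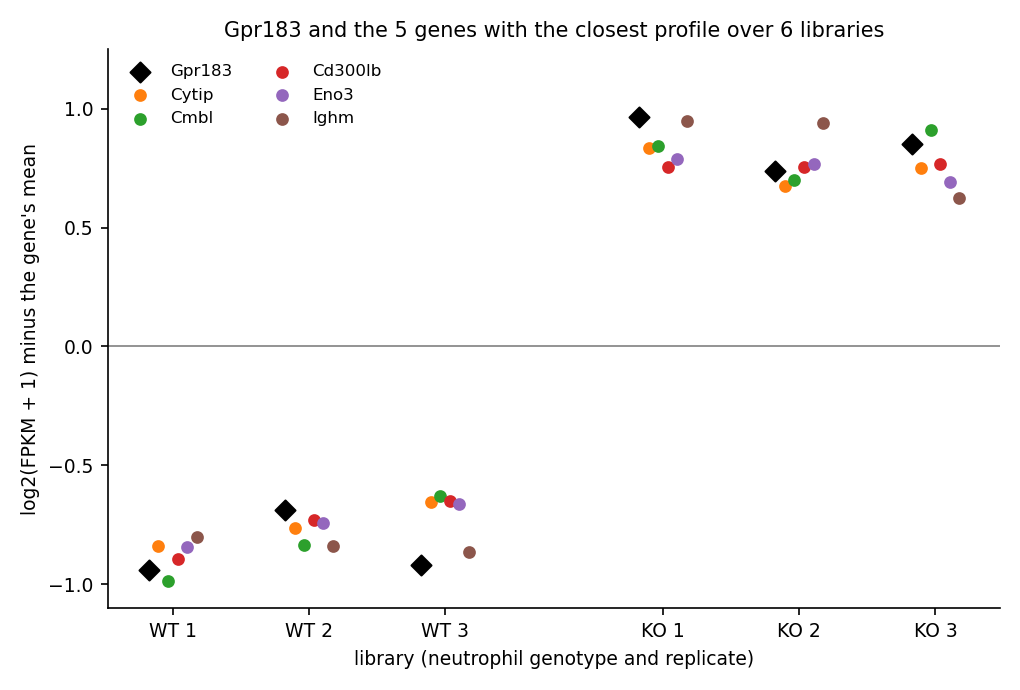
Centred log2(FPKM + 1) in each of the 6 libraries for Gpr183 (diamonds) and the 5 genes with the closest profile (circles). Each gene lies under its own mean in the 3 WT libraries and above it in the 3 KO libraries, and the distances to Gpr183 are 0.141 to 0.152.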

How the data were processed

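Expression was deposited by the authors as FPKM, fragments scaled to transcript length and to mapped fragments of the library, in 1 table of 55335 Ensembl gene identifiers with a column for each library. The submitters' processing notes name fastp 0.17.1, HISAT2 2.1.0, DESeq2 1.18.1 and R 3.4.3. The quantifier, genome build and annotation are not given in the sources used here. Labels and methods name different library kits, and strand was not stated.

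Symbols and positions came from GENCODE M21 (55154 identifiers matched, 99.67%), which may not be the annotation used by the authors. Groups and replicate numbers came from the titles. Low values came out as whole fragments (within 0.05) for only 26.1% to 27.4%, against 10% by chance, so depth is unknown, no detection floor is given and no count test was run.

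Differences were fitted with limma 3.58.1 (R 4.3.3, trended variance, no covariates) to log2(FPKM + 1) as KO minus WT neutrophils. This was done for the 11395 genes whose 6 libraries averaged 1 FPKM or more. P-values were adjusted by Benjamini-Hochberg over these genes. Because of the added 1, differences of low genes are understated. The fit was tested on simulated data. The exact two-sided permutation test cannot go below p = 0.1 with 3 libraries against 3 and was not used.

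Members and lists were chosen with earlier results of these data known. Of each list up to 4 called genes with at least 5 FPKM in the higher arm were named, by size of difference, and 1 gene that met this rule is not reported here. Cyp46a1, Cyp11a1 and genes listed at 0 were named after their values were seen. Only RNA was analysed, not protein or sterols. Promoter sequences came from RefSeq (GRCm38.p6), with entries for 7 of the 9 members. Alternatives were another pseudocount, other filters, scaling to equal FPKM sums, median centring, quantile normalization, no variance trend, a replicate block, the threshold of the study and leaving out each library.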

Additional observations from a re-analysis of the deposited data

How the results depend on the processing

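The members' values are a description, since this contrast chose them. The log2 difference ranged over all settings from 1.65 to 2.24 for Gpr183, -1.03 to -0.93 for Abca1, 0.32 to 0.43 for Abcg1, 0.53 to 0.67 for Mylip and 0.22 to 0.29 for Hsd3b7. It was -0.08 to 0.01 for Nr1h2 and -0.22 to -0.04 for Nr1h3. Gpr183, Mylip and Nr1h3 were not tested with a mean of at least 5 FPKM.

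Called genes numbered 4930, and 293 by the threshold of the study, a fold above 2 with p under 0.05 before adjustment, which adds a fold and drops the adjustment. Leaving out 1 library gave 4082 to 4223 calls. Higher genes of the 5 lists numbered 31, and 24 to 26 when 1 library was left out. Lower genes numbered 7, but 4 with no filter on low values, 4 with the replicate block, and 4 to 5 when 1 library was left out. Rxrb, Insig2 and Grk2 were the lower genes lost without the filter and under the block, as was Ebp among the higher genes named. Rxrb and Grk2 were also lost without the variance trend. In each case the cause was not tested.

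Replicate numbers did not pair the libraries. Deviations of same-numbered libraries correlated at -0.075, -0.052 and -0.005, and libraries did not correlate best with their own number. The replicate block gave 4212 called genes and 24 higher ones in the lists. A count test was not run because whole fragments were not recovered. Without known depth, values near 0 such as those of Cd177 cannot be given a counting error.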
